A study of Mus musculus with 12 samples.

Results

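Most cathepsins are proteases of the lysosome, and 10 mouse cathepsin genes, Ctsw, Ctsa, Ctsb, Ctsc, Ctsd, Ctsh, Ctsk, Ctsl, Ctss and Ctsz, were followed in bone marrow mesenchymal stem cells (MSCs). They were taken by symbol from a table of 55401 genes. Ctsw was chosen by its FPKM, being among the genes that differ most between TGF-β1-treated and untreated MSCs, and the other cathepsins were added by family. That contrast therefore served the choice, and the values of the 10 genes in it are given as a description, with no test.

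Cathepsins are made as inactive precursors, most of which are tagged with mannose 6-phosphate in the Golgi, carried to the lysosome and activated there by cleavage. Cathepsin D is an aspartic protease and cathepsin A a serine carboxypeptidase, while cathepsins B, C, H, K, L, S, W and Z share the papain fold with a catalytic cysteine. Cathepsins B, D, L and Z are found in most cells, cathepsin K is known from osteoclasts, cathepsin S from antigen-presenting cells, and cathepsin W from cytotoxic T cells and natural killer cells. Cystatins are protein inhibitors of the papain-like members.

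The MSCs were commercial bone marrow cells of C57BL/6 mice. They were left without treatment, given TGF-β1 at 5 ng/mL, or given TGF-β1 at 5 ng/mL together with the supernatant of monocytic (M-MDSC) or granulocytic (G-MDSC) myeloid-derived suppressor cells sorted from cultured mouse bone marrow. TGF-β1 is a cytokine that drives MSCs toward myofibroblasts, and the study asked whether the supernatants hinder this change. No group received supernatant without TGF-β1, so an effect of supernatant is seen here only on top of TGF-β1. Nor is any group described as given the culture medium of the MDSCs without these cells. A change with supernatant therefore cannot be told apart from one due to that medium. Each of the 4 groups had 3 libraries of polyadenylated RNA. Nothing in the sources states that the libraries of a group came from separate cultures, so the p-values measure the spread between these libraries, which may be technical.

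The 12 libraries held 73977669 to 84565450 counts. Levels are given as FPKM, which scales fragments by gene length and library size. Tests were run on the counts of the 12016 genes that reached 1 FPKM in 3 or more libraries. The MSC label fits the marker genes in part: 7 of 8 MSC markers passed this filter, and Eng stayed at or below 0.968 FPKM. Nt5e passed it through the groups in which it is high (0.407 FPKM untreated and 1.00 FPKM with TGF-β1), so its test is not counted. Of the other 6, with TGF-β1 3 rose by edgeR's quasi-likelihood test (Itgb1, Cd44 and Pdgfrb) and 3 fell (Thy1, Pdgfra and Ly6a, the last from 245 to 16.2 FPKM), where 16.1% of all genes tested rose and 17.9% fell. The summed level of the 8 markers was 581 to 598 FPKM in untreated libraries, 500 to 513 with TGF-β1, 555 to 586 with M-MDSC and 533 to 559 with G-MDSC supernatant. These are bulk samples, in which fewer cells of a type and less RNA per cell cannot be told apart.

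Of the 10 cathepsin genes, 6 passed the filter (Ctsw, Ctsa, Ctsb, Ctsd, Ctsl and Ctsz), and Ctsc, Ctsh, Ctsk and Ctss did not. Ctsw (ENSMUSG00000024910) lies on the minus strand at chr19:5465043-5468501 of GRCm38. Ctsa and Ctsz lie on chromosome 2 (chr2:164832873-164840019 and chr2:174427493-174439039), and Ctsc and Ctsd on chromosome 7 (chr7:88278085-88310888 and chr7:142375911-142388038). Ctsk and Ctss are close to each other at chr3:95499256-95509362 and chr3:95526786-95556403. The remaining genes are Ctsb at chr14:63122462-63145923, Ctsh at chr9:90054152-90076089 and Ctsl at chr13:64359337-64370890.

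The kinship of Ctsw with the other papain-like members is visible at the codon of the catalytic cysteine. The lines below show 30 bases of coding sequence from the GENCODE vM21 transcripts, 5′ to 3′, with that codon in capitals, for the 8 members that have it.
Ctsw: cagggaagctgcaaatgcTGCtgggccatg
Ctsb: cagggctcctgcggctctTGTtgggcattt
Ctsc: caagaatcttgtggaagcTGCtactcattt
Ctsh: cagggggcctgtggcagcTGCtggactttc
Ctsk: cagggccagtgtggttccTGTtgggctttc
Ctsl: cagggccagtgcgggtctTGTtgggcgttt
Ctss: cagggttcttgtggtgccTGCtgggctttc
Ctsz: ccacagtactgtggttccTGCtgggcccac

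In these 30 bases Ctsw shares 18 positions with Ctsb and Ctsh, 17 with Ctsk, Ctsl and Ctss, and 15 with Ctsc and Ctsz. No stretch of 31 bases in the annotated exons of Ctsw, Ctsk, Ctss or Ctsz occurs in another gene. In 4 members a larger share of such stretches does: 33.2% for Ctsd (most with Gm49369), 28.2% for Ctsl (most with Gm47123), 14.6% for Ctsa (most with Pltp) and 13.0% for Ctsb (most with Fdft1). Gm49369 overlaps Ctsd by 6757 bases on the same strand, and Gm47123 overlaps Ctsl by 1971 bases on the opposite strand. Pltp and Fdft1 overlap the cathepsin gene on the opposite strand, over 502 bases of Ctsa and 774 bases of Ctsb. The library kit keeps strand information, but whether the counting used it is not given in the sources used here, so reads from these overlaps could have been counted for either gene. Gm47123 was at 0 FPKM in every library, and the mean of Gm49369 was at most 0.146 FPKM in any group.

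Ctsw was nearly silent in untreated MSCs and was expressed in every library with TGF-β1. The untreated libraries had 0.265, 0.184 and 0.302 FPKM (45, 34 and 52 counts). The TGF-β1 libraries had 11.98, 13.05 and 9.43 FPKM (2031, 2249 and 1593 counts). All 3 TGF-β1 libraries were far above all 3 untreated ones, and the ratio of the mean levels was 45.9. The fitted log2 fold change was 5.52, the ninth largest of the 12016 genes tested, and the next below it was that of Postn (5.12). Of the 8 genes ranked above Ctsw, 5 were listed at 0 FPKM in the untreated group, where a fitted fold has no bound.

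With M-MDSC supernatant on top of TGF-β1, Ctsw was at 6.77, 9.53 and 9.24 FPKM. With G-MDSC supernatant it was at 7.34, 9.22 and 8.25 FPKM. The order of the group means was TGF-β1 (11.5 ± 1.86 FPKM, SD, n = 3), M-MDSC supernatant (8.51 ± 1.51), G-MDSC supernatant (8.27 ± 0.940) and untreated (0.2501 ± 0.0601). The libraries of the supernatant groups overlapped each other, and those with M-MDSC supernatant overlapped those with TGF-β1 alone. Those with G-MDSC supernatant lay just below TGF-β1 alone (9.22 against 9.43 FPKM at the nearest). Both supernatant groups remained over 33-fold above untreated in mean level (34.0-fold with M-MDSC and 33.1-fold with G-MDSC supernatant).

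The cells in which Ctsw is best known left almost no reads. All 9 T and NK cell markers (Cd3e, Cd3d, Cd8a, Cd2, Nkg7, Gzmb, Prf1, Klrb1c and Ncr1) were at 0 counts in all 3 TGF-β1 libraries, the group with the highest mean of Ctsw. Their summed level was at most 0.0227 FPKM in untreated libraries, 0.0350 with M-MDSC and 0.0103 with G-MDSC supernatant, and no marker exceeded 8 counts in any library.

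**Figure D1:**
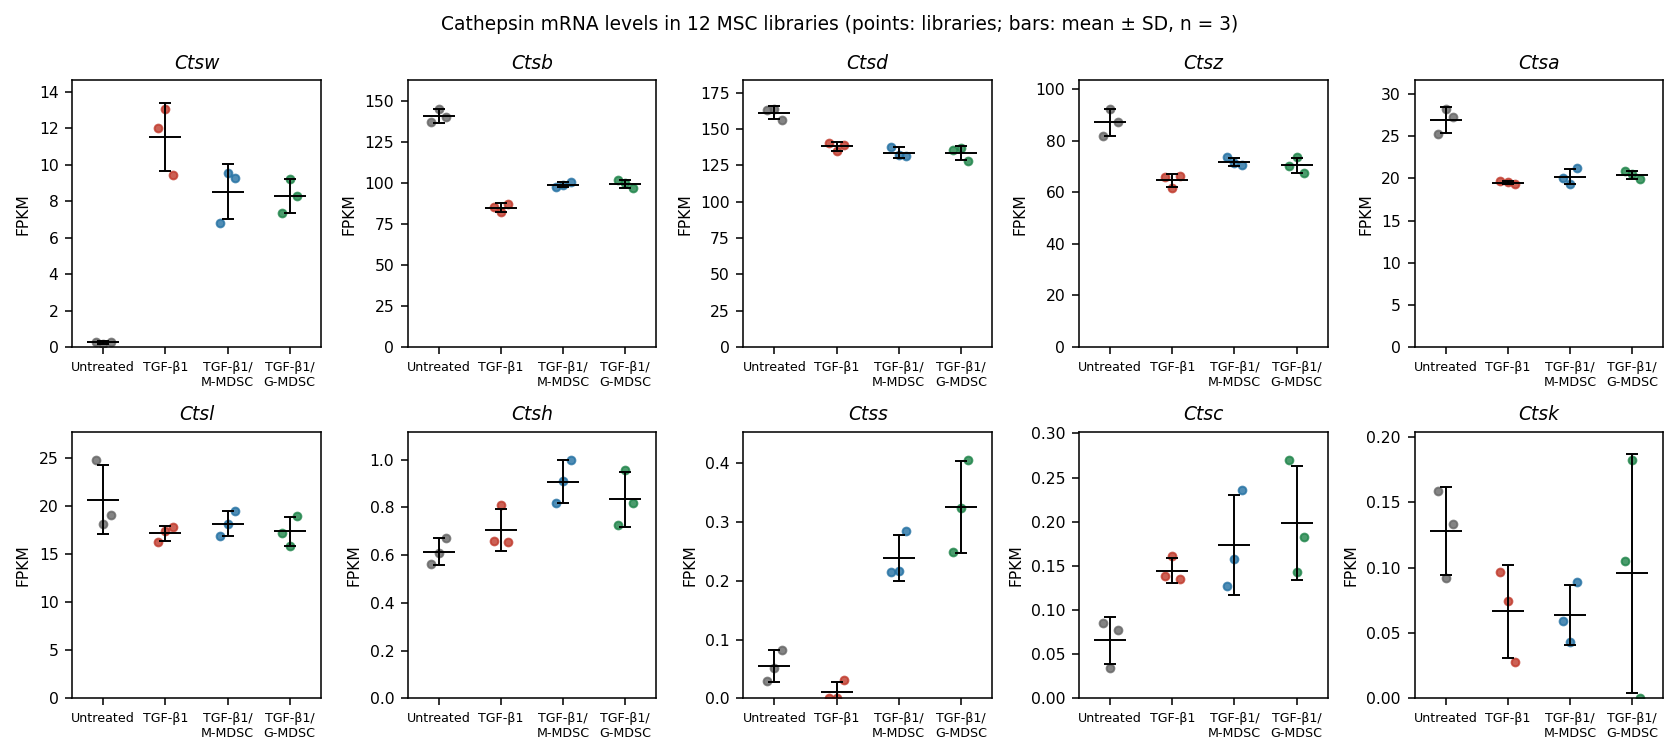
Level in FPKM (linear axes from 0, each gene on its own scale) of the 10 cathepsin genes in the 12 libraries, with points for libraries and bars for the mean ± SD of 3. Ctsw goes from 0.2501 FPKM in untreated cells to 11.5 FPKM with TGF-β1, while Ctsb, Ctsd, Ctsz, Ctsa and Ctsl are highest in untreated cells, and Ctss is above 0.2 FPKM only in the groups with supernatant.

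The 5 other members that passed the filter were expressed in untreated cells and were lower with TGF-β1. Ctsd, the aspartic protease, was the most abundant. It was at 163, 164 and 156 FPKM in untreated libraries and 140, 135 and 139 FPKM with TGF-β1, a fitted log2 fold change of -0.17. Its untreated libraries were all above its TGF-β1 libraries, by a small margin. Ctsa, the serine carboxypeptidase that protects β-galactosidase and neuraminidase in the lysosome, was at 25.3, 28.2 and 27.2 FPKM untreated. With TGF-β1 it was at 19.6, 19.6 and 19.3 FPKM (log2 fold change -0.41), and those 3 libraries differed from each other by less than any untreated pair.

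Among the cysteine cathepsins that passed the filter, Ctsb, an endopeptidase that also trims dipeptides from the carboxyl end, differed most after Ctsw. It was at 137, 145 and 140 FPKM untreated and 85.4, 82.3 and 87.5 FPKM with TGF-β1 (log2 fold change -0.67). Ctsz, a carboxypeptidase, was at 81.8, 92.4 and 87.4 FPKM untreated and 65.9, 61.8 and 66.2 FPKM with TGF-β1 (-0.37). In both genes the groups were well apart. Ctsl, an endopeptidase of broad range, was at 24.8, 18.2 and 19.1 FPKM untreated and 16.3, 17.4 and 17.9 FPKM with TGF-β1 (-0.21). Here the groups barely separated, and without the untreated library at 24.8 FPKM the log2 fold change was -0.08.

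Thus 5 of the 6 members that passed the filter lay lower in all TGF-β1 libraries than in all untreated ones, and 1 lay higher. Over all genes tested, 30.0% lay lower and 16.6% higher in this way, and since the choice of genes used this contrast, nothing is read from the count. The median log2 fold change was -0.29 over the 6 members and 0.00050 over all genes tested. In summed level, the 10 genes together were at 438 ± 9.81 FPKM untreated and 337 ± 5.93 FPKM with TGF-β1 (SD, n = 3). Ctsw made up 0.0573% ± 0.0148 of this sum untreated and 3.4% ± 0.60 with TGF-β1, Ctsb 32.2% ± 0.475 and 25.2% ± 0.425, and Ctsd 36.8% ± 0.802 and 41.0% ± 0.207. FPKM divides by the length of all annotated exons together, which is 6489 bases for Ctsl against 1971 for its principal transcript, so levels between genes compare only roughly.

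The genes around Ctsw were measured in the same libraries and, unlike Ctsw, took no part in the choice. Within 20 kb lie Fosl1, Ccdc85b, Fibp, Efemp2 and Mus81, and Fibp overlaps Ctsw by 9 bases on the opposite strand. With TGF-β1, Fosl1, a subunit of the AP-1 transcription factor, fell from 32.8 to 26.7 FPKM (log2 fold change -0.24 ± 0.048 SE, adjusted p = 0.00289 with edgeR's quasi-likelihood test). The others did not pass: the log2 fold change was 0.33 for Efemp2 (adjusted p = 0.0872), 0.23 for Fibp (0.255), -0.07 for Mus81 (0.550) and 0.76 for Ccdc85b (0.400). Thus 1 of 5 neighbours was called lower and none higher, where 17.9% of all genes tested were called lower and 16.1% higher. For Efemp2 the call is close, with an adjusted p of 0.0454 in DESeq2 and 0.0265 without untreated library 3. Ccdc85b varied widely within 3 of the groups, for example at 16.7, 4.80 and 16.2 FPKM with TGF-β1. With G-MDSC supernatant Fosl1 rose from 26.7 to 32.6 FPKM (log2 fold change 0.26 ± 0.048 SE, adjusted p = 0.00844 with edgeR), and no other neighbour passed with either supernatant.

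**Figure D2:**
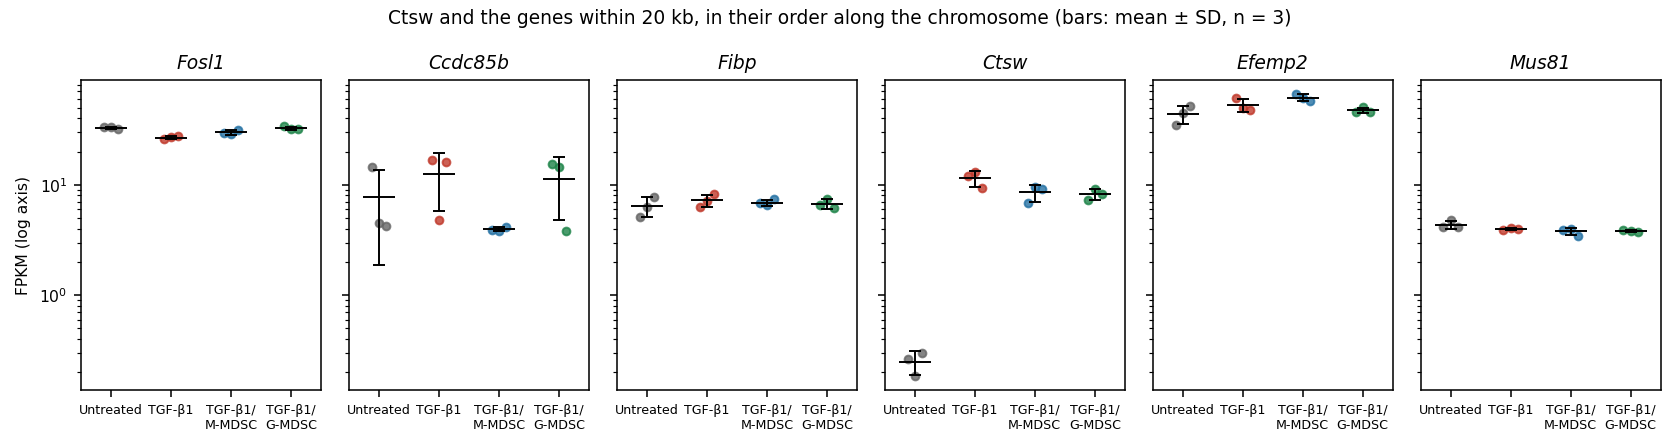
FPKM on a log axis of Ctsw and the 5 genes within 20 kb of it, in their order along the chromosome, with points for libraries and bars for the mean ± SD of 3. Ctsw is the gene with the wide step between untreated and treated cells, while the mean of Fosl1 lies between 26.7 and 32.8 FPKM and that of Mus81 between 3.78 and 4.34 FPKM in all 4 groups.

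Plk2 (Pearson r = 0.995), Bhlhe40 (0.995), Unc5b (0.992) and Col5a2 (0.992) were among the 5 genes whose log2(FPKM + 1) followed Ctsw most closely over the 12 libraries. These correlations are a description: the 3 untreated libraries stand apart from the 9 with TGF-β1 and set most of each value. Plk2, a polo-like kinase, had mean levels of 30.6, 77.0, 67.0 and 65.2 FPKM in untreated, TGF-β1, M-MDSC and G-MDSC supernatant groups. Bhlhe40, a transcriptional repressor, had 22.6, 76.3, 65.1 and 64.8 FPKM in the same order. The 5 other cathepsins that passed the filter ran the opposite way, with r from -0.97 for Ctsb and Ctsa to -0.61 for Ctsl.

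To find out whether MDSC supernatant changed the cathepsins of TGF-β1-treated cells, each supernatant group was set against TGF-β1 alone. Both comparisons use the same 3 TGF-β1 libraries, so they are not independent of each other, and for Ctsw those libraries had also served the choice of the list. Among the members tested, Ctsb rose and the others did not pass the test.

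With M-MDSC supernatant Ctsb was at 97.9, 99.0 and 101 FPKM, and with G-MDSC supernatant at 102, 99.9 and 97.3 FPKM. All 6 libraries were above the 3 libraries with TGF-β1 alone (82.3 to 87.5 FPKM) and below the 3 untreated ones (137 to 145 FPKM). The log2 fold change was 0.20 ± 0.034 (SE) with M-MDSC supernatant (edgeR adjusted p = 0.00665) and 0.20 ± 0.034 with G-MDSC supernatant (adjusted p = 0.00522). With single libraries left out, the adjusted p ranged from 0.00986 to 0.0386 and from 0.00854 to 0.0301, respectively. Fdft1, which overlaps the end of Ctsb, had mean levels of 29.5 ± 5.50 FPKM with TGF-β1, 34.0 ± 1.64 with M-MDSC and 26.1 ± 5.47 with G-MDSC supernatant (SD, n = 3), and its part in the Ctsb counts was not tested.

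In this way 1 of 6 members was called higher and 0 lower with M-MDSC supernatant, where 2.83% of all genes tested were called higher and 1.95% lower. With G-MDSC supernatant it was again 1 of 6 higher and 0 lower, against 3.10% and 2.46% of all genes. At an unadjusted p under 0.05, 2 members were higher and 1 lower with M-MDSC supernatant, and 1 higher and 1 lower with G-MDSC supernatant, where 16.7% and 17.2% of all genes tested reached it in either direction. The lower member was Ctsw in both, whose TGF-β1 libraries had served the choice. DESeq2 called 1 member higher (Ctsb) and 0 lower in each comparison, where it called 6.91% of all genes in either direction with M-MDSC and 8.24% with G-MDSC supernatant. The median log2 fold change of the members was 0.04 and 0.01, and that of all genes tested was -0.01 in both.

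Ctsw itself was lower in mean with either supernatant, but not beyond the test. Its high TGF-β1 libraries had served the choice, which favours a lower value against them in advance. The values below are therefore a description, and nothing is read from their direction. The log2 fold change was -0.45 ± 0.18 (SE) with M-MDSC supernatant, with a 95% interval from -0.85 to -0.06, an unadjusted p of 0.0276 and an adjusted p of 0.220 in edgeR. With G-MDSC supernatant it was -0.50 ± 0.18, from -0.89 to -0.11, with an unadjusted p of 0.0178 and an adjusted p of 0.161 in edgeR. With single libraries left out, the adjusted p stayed between 0.163 and 0.475 and between 0.119 and 0.413.

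Ctsz was at 73.6, 71.4 and 70.5 FPKM with M-MDSC supernatant and at 70.1, 73.7 and 67.6 FPKM with G-MDSC supernatant. All 6 libraries lay above TGF-β1 alone (61.8 to 66.2 FPKM), yet the log2 fold changes of 0.13 and 0.10 did not pass (edgeR adjusted p = 0.243 and 0.399). Ctsa was at 20.03, 19.4 and 21.2 FPKM with M-MDSC and at 20.8, 20.5 and 19.9 FPKM with G-MDSC supernatant, within 0.04 of TGF-β1 alone on the log2 scale. Ctsd was at 138, 132 and 131 FPKM and at 135, 137 and 128 FPKM, and its log2 fold change was -0.07 in both, where the 95% intervals ran from -0.15 to 0.02 and from -0.16 to 0.01. Ctsl was at 16.9, 18.2 and 19.5 FPKM and at 17.3, 15.9 and 19.0 FPKM, and its libraries overlapped TGF-β1 alone in both comparisons.

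Against TGF-β1 alone, the libraries of 2 of 6 members lay wholly higher with M-MDSC supernatant (13.4% of all genes tested) and none wholly lower (10.6%). With G-MDSC supernatant 3 of 6 lay wholly higher (13.2% of all genes) and 1, Ctsw, wholly lower (9.55%). Since the TGF-β1 libraries had served the choice of Ctsw, nothing is read from its place in this count.

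The M-MDSC and G-MDSC supernatants were then compared with each other. No member differed by edgeR's test (0 of 6, where 0.125% of all genes tested were called), 0 had an unadjusted p under 0.05 (6.33% of all genes), and DESeq2 also called 0 (1.01% of all genes). The log2 difference, M-MDSC minus G-MDSC supernatant, was 0.04 for Ctsw with a 95% interval from -0.35 to 0.44, so a change of Ctsw of that size could have been missed. For the more evenly measured Ctsb it was -0.0030, from -0.08 to 0.07. Ctsa, Ctsd, Ctsz and Ctsl lay between -0.01 and 0.07, with intervals that reached no further than -0.18 and 0.32. In all 6 genes the libraries of the supernatant groups overlapped, whereas 5.97% of all genes tested lay wholly higher and 6.03% wholly lower with M-MDSC supernatant.

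**Figure D3:**
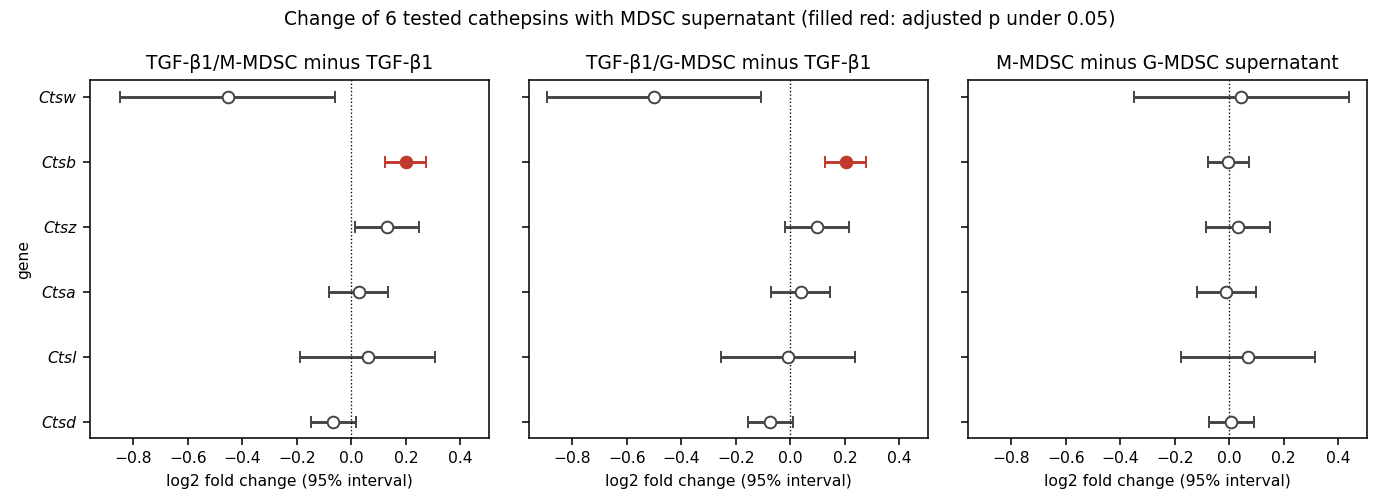
Log2 fold change (points) with its 95% interval (bars) of the 6 tested cathepsin genes for M-MDSC supernatant and for G-MDSC supernatant against TGF-β1 alone, and for M-MDSC against G-MDSC supernatant. Ctsb, in filled red, passes the adjusted test at 0.20 in each of the first 2 panels, the interval of Ctsw is wide and below 0 in both, and all intervals in the third panel include 0.

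The 4 members below the filter were scarce but not all absent. Ctsh, an aminopeptidase, came nearest to it, at 0.561, 0.610 and 0.674 FPKM untreated and 0.659, 0.809 and 0.653 FPKM with TGF-β1. It was at 0.818, 0.909 and 0.998 FPKM with M-MDSC and 0.728, 0.957 and 0.820 FPKM with G-MDSC supernatant. The 3 libraries with M-MDSC supernatant were above the 3 with TGF-β1 alone, but in a fit of all 28622 genes with any count the difference did not pass (edgeR adjusted p = 0.428).

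Ctsc, the dipeptidyl peptidase that activates granule serine proteases, had 19 to 44 counts untreated, 71 to 87 with TGF-β1, 63 to 121 with M-MDSC and 75 to 149 with G-MDSC supernatant. The supernatant groups overlapped TGF-β1 alone, with edgeR adjusted p-values of 0.897 and 0.679 in the fit without a filter. Ctsk, the collagen-degrading endopeptidase, had 0 to 25 counts in every library, and each supernatant group overlapped TGF-β1 alone. The osteoclast markers, for the cell in which Ctsk is best known, summed to at most 0.321 FPKM, and Dcstamp was at 0 in all libraries.

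Ctss stood out among the scarce members. It had 4, 7 and 11 counts in untreated libraries and 0, 0 and 4 with TGF-β1. It had 25, 25 and 34 counts with M-MDSC supernatant and 33, 39 and 50 with G-MDSC supernatant. All 6 libraries with supernatant were above all 6 without, at 0.215 to 0.405 FPKM against 0 to 0.0832. In the fit without a filter Ctss rose with M-MDSC supernatant (log2 fold change 4.35 ± 0.94 SE, edgeR adjusted p = 0.0386) and with G-MDSC supernatant (4.77 ± 0.94 SE, adjusted p = 0.0202), where 2.10% and 2.58% of the 28622 genes were called. The fitted folds rest on 4 counts in 1 TGF-β1 library and depend on the prior count. Between the supernatants Ctss did not pass (edgeR adjusted p = 1). Against untreated cells the mean level was 4.33 times higher with M-MDSC and 5.90 times higher with G-MDSC supernatant.

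Among the 8 macrophage markers, the libraries with M-MDSC supernatant lay wholly above TGF-β1 alone in 4 (Cd68, Lyz2, Mrc1 and Cx3cr1). Those with G-MDSC supernatant did in 2 (Lyz2 and Itgam), and none lay wholly below. Only 3 of the 8 passed the filter. Of these it was 2 with M-MDSC and 1 with G-MDSC supernatant, where 13.4% and 13.2% of all genes tested lay wholly above. The other 5 were below the filter, so these shares do not cover them. Among the 6 granulocyte markers, 1 lay wholly above with M-MDSC (S100a9, also below the filter) and 0 with G-MDSC supernatant. Lyz2, the lysozyme of macrophages and granulocytes, had 0 to 23 counts in libraries without supernatant, 71 to 262 with M-MDSC and 185 to 262 with G-MDSC supernatant. It passed the filter through the groups in which it is high, so its test is not used here and nothing is read from its place beside the shares above. Of the other tested macrophage markers, Csf1r (log2 fold change 0.04 with M-MDSC and 0.18 with G-MDSC supernatant) and Cd68 (0.64 and 0.46) did not pass edgeR's test. The mean of Cd68 was 2.38 FPKM in untreated cells, 1.48 with TGF-β1, 2.35 with M-MDSC and 2.07 with G-MDSC supernatant. Its level with supernatant was thus not above that of untreated cells. Cx3cr1, a chemokine receptor, had 4 to 21 counts without supernatant, 26 to 37 with M-MDSC and 17 to 33 with G-MDSC supernatant. Mrc1, the mannose receptor, had 6 to 22 counts in untreated libraries, 0 to 8 with TGF-β1, 11 to 16 with M-MDSC and 0 to 19 with G-MDSC supernatant. Itgam (CD11b) had 0 to 1 counts without supernatant, 0, 0 and 41 with M-MDSC and 42, 14 and 16 with G-MDSC supernatant. Ptprc had 0 to 4 counts without and 0 to 26 with supernatant, and Adgre1 was at 0 in every library without supernatant and at 0 to 8 counts with it. The summed level of the 8 macrophage markers was 2.76 to 3.68 FPKM untreated, 2.18 to 3.16 with TGF-β1, 3.98 to 6.02 with M-MDSC and 4.16 to 6.05 with G-MDSC supernatant.

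The granulocyte markers did not run together. Ly6g, the surface antigen that defines mouse granulocytes, was highest in untreated libraries, at 152, 153 and 161 counts, and had 4 to 8 counts with TGF-β1, 0 to 13 with M-MDSC and 0 to 18 with G-MDSC supernatant. S100a9 was at 0 in every library without supernatant, at 43, 12 and 23 counts with M-MDSC and at 0, 0 and 160 with G-MDSC supernatant. S100a8 had 0 to 4 counts without and 0 to 33 with supernatant, Camp had 0 to 10 without and 0 to 19 with supernatant, and Mpo and Elane were at 0 in all 12 libraries. The 6 markers summed to 1.84 to 2.09 FPKM untreated, 0.0445 to 0.195 with TGF-β1, 0.258 to 1.41 with M-MDSC and 0 to 4.36 with G-MDSC supernatant. Ly6g made up most of the untreated sum (mean 1.83 FPKM), and S100a9 in 1 library (3.40 FPKM) most of the highest sum with G-MDSC supernatant. The part of these cells in the level of Ctss was not tested.

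Some promoters of the list hold motifs of interest, given here as a description. RefSeq windows from 250 bases before to 50 after the start site (GRCm38.p6) were matched for 7 of the 10 genes, and Ctsw, Ctsb and Ctsh had no entry. The motif GTCACGTG, the CLEAR element recognised by TFEB, TFE3 and MITF, was searched on both strands. It was in the windows of Ctsa and Ctsd, 2 of 7, and in 2.24% of 32817 windows. Its core CACGTG, which overlaps it by construction, was in 3 of 7 (Ctsa, Ctsd and Ctsl) and in 7.15% of all windows. GAAA followed by any 2 bases and GAAA again, the core of the interferon-stimulated response element, was searched on both strands and was found in Ctss alone among the 7, and in 3.43% of all windows. The stretches that hold the longer motifs are shown 5′ to 3′ on the strand of the gene, with the motif in capitals, at chr2:164833744-164833800 (plus strand) for Ctsa, chr7:142387903-142388077 (minus strand) for Ctsd and chr3:95526750-95526789 (plus strand) for Ctss.
Ctsa: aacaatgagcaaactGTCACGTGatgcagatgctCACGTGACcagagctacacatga
Ctsd: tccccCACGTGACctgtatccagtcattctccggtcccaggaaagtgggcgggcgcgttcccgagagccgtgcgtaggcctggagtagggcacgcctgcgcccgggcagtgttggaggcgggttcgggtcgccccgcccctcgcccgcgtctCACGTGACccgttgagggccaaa
Ctss: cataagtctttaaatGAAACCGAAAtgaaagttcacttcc

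Genes that work with the cathepsins were not used by the rule that picked Ctsw, and they were tested also for TGF-β1. These lists were, however, chosen with earlier results of these data known. Their calls, and the shares of all genes set beside them, are therefore not independent of that choice. Among the cystatins, 2 of 17 passed the filter, and both fell with TGF-β1, where 17.9% of all genes tested fell. Cst3 (cystatin C, the secreted inhibitor) fell from 201 to 115 FPKM (log2 fold change -0.75, edgeR adjusted p = 8.62e-06), and Cstb (cystatin B, the cytosolic inhibitor) fell from 149 to 116 FPKM (-0.31, adjusted p = 7.35e-05). The other 15 stayed at or below 1.37 FPKM, and 13 of them were at 0 in every library. Neither Cst3 nor Cstb passed with M-MDSC supernatant (130 and 122 FPKM) or G-MDSC supernatant (116 and 121 FPKM). The median log2 fold change of the pair with TGF-β1 was -0.53, against 0.00050 for all genes.

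Cathepsin A holds β-galactosidase (Glb1) and neuraminidase (Neu1) in a complex. Both genes fell with TGF-β1, Glb1 from 23.3 to 19.1 FPKM (log2 fold change -0.23, edgeR adjusted p = 0.00425) and Neu1 from 3.84 to 2.55 FPKM (-0.53, adjusted p = 0.00222), where 17.9% of all genes tested fell. Neither passed with a supernatant (0 of 2 in each comparison, also by DESeq2, which called 6.91% of all genes in either direction with M-MDSC and 8.24% with G-MDSC supernatant), and Glb1 alone had an unadjusted p under 0.05, with M-MDSC supernatant.

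Of 6 other lysosomal peptidases, all tested, 2 fell and none rose with TGF-β1 (17.9% of all genes fell). Tpp1, a tripeptidyl peptidase, fell from 10.02 to 5.46 FPKM (log2 fold change -0.82, edgeR adjusted p = 0.00382). Lgmn, the asparaginyl endopeptidase that cleaves cathepsin precursors, fell from 45.3 to 37.3 FPKM (-0.22, adjusted p = 0.0251), but its adjusted p was 0.0572 without TGF-β1 library 2, 0.0716 without TGF-β1 library 3, 0.0566 without the filter and 0.0792 with only these groups fitted. The other peptidases, Dpp7 (log2 fold change -0.26), Scpep1 (0.00060) and Prcp (-0.04), did not pass, and Napsa was at 0 in both groups.

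With supernatant, none of the other 5 passed edgeR's test, reached an unadjusted p under 0.05 or was called by DESeq2, where 2.83% and 3.10% of all genes were called higher and 1.95% and 2.46% lower by edgeR. Napsa, an aspartic protease related to cathepsin D, had 0 counts in all 6 libraries without supernatant, 125, 86 and 426 with M-MDSC supernatant and 286, 287 and 236 with G-MDSC supernatant. Against a floor of 3 counts per library it was at least 73.4-fold higher with M-MDSC and at least 87.7-fold higher with G-MDSC supernatant. Without M-MDSC supernatant library 3, which held 426 of its counts, the first of these limits was 37.7-fold, and without any 1 G-MDSC supernatant library the second was no lower than 83.6-fold. Napsa passed the filter through the groups in which it is high, so its test is not counted. It was high in the libraries with supernatant, as Ctss and Lyz2 were, and the part of the myeloid markers given above in its level was not tested.

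None of the 5 tested genes for mannose 6-phosphate tagging and sorting (Gnptab, Gnptg, Nagpa, M6pr and Igf2r) passed in any comparison by edgeR's test. At an unadjusted p under 0.05 there were 0 with TGF-β1, 2 with M-MDSC and 2 with G-MDSC supernatant, where 42.3%, 16.7% and 17.2% of all genes tested reached it. These were in both cases M6pr, the cation-dependent receptor (log2 fold change 0.11 and 0.11), and Igf2r, the cation-independent receptor (-0.26 and -0.25). DESeq2 called M6pr higher with each supernatant, the 1 gene of the 5 that it called, where it called 6.91% and 8.24% of all genes.

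Of the lysosomal membrane proteins and regulators, 6 of 7 were tested. The regulator Mitf, at 1.70 FPKM untreated and 0.936 FPKM with TGF-β1, passed the filter through the untreated libraries, so its test with TGF-β1 is not counted. Of the other 5, 3 fell and 1 rose with TGF-β1 (17.9% and 16.1% of all genes). Lamp1 (log2 fold change -0.23), Lamp2 (-0.24) and Scarb2 (-0.24) fell, and the tetraspanin Cd63 rose (0.35), with edgeR adjusted p-values from 0.000193 for Lamp1 to 0.0122 for Scarb2. Tfe3 was at 12.4 FPKM untreated and 12.2 FPKM with TGF-β1, and Tfeb stayed below the filter, with a mean of 1.08 and 0.728 FPKM.

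Lamp2 and Scarb2, the receptor that carries glucocerebrosidase to the lysosome, were 2 of the 6 that rose with either supernatant, where 2.83% (M-MDSC) and 3.10% (G-MDSC) of all genes rose. Scarb2 was at 4.99, 5.73 and 5.53 FPKM with TGF-β1, at 7.50, 8.11 and 7.66 FPKM with M-MDSC supernatant and at 7.45, 6.64 and 7.21 FPKM with G-MDSC supernatant. All libraries with supernatant were above TGF-β1 alone (log2 fold change 0.50 and 0.36, edgeR adjusted p = 0.000910 and 0.00607). The call with G-MDSC supernatant was lost when only these groups were fitted (adjusted p = 0.0546). Lamp2 was at 28.3 to 29.0 FPKM with TGF-β1, 31.6 to 34.2 with M-MDSC and 32.7 to 34.1 with G-MDSC supernatant (log2 fold change 0.18 and 0.19, edgeR adjusted p = 0.0216 and 0.0140). The M-MDSC call of Lamp2 was lost with 5 of the 6 libraries left out in turn (adjusted p from 0.0593 to 0.0952; M-MDSC library 1 was the exception), with only these groups fitted (0.0713) and with the replicate number as a block (0.0580), and the G-MDSC call without G-MDSC library 1 (0.0658).

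**Figure D4:**
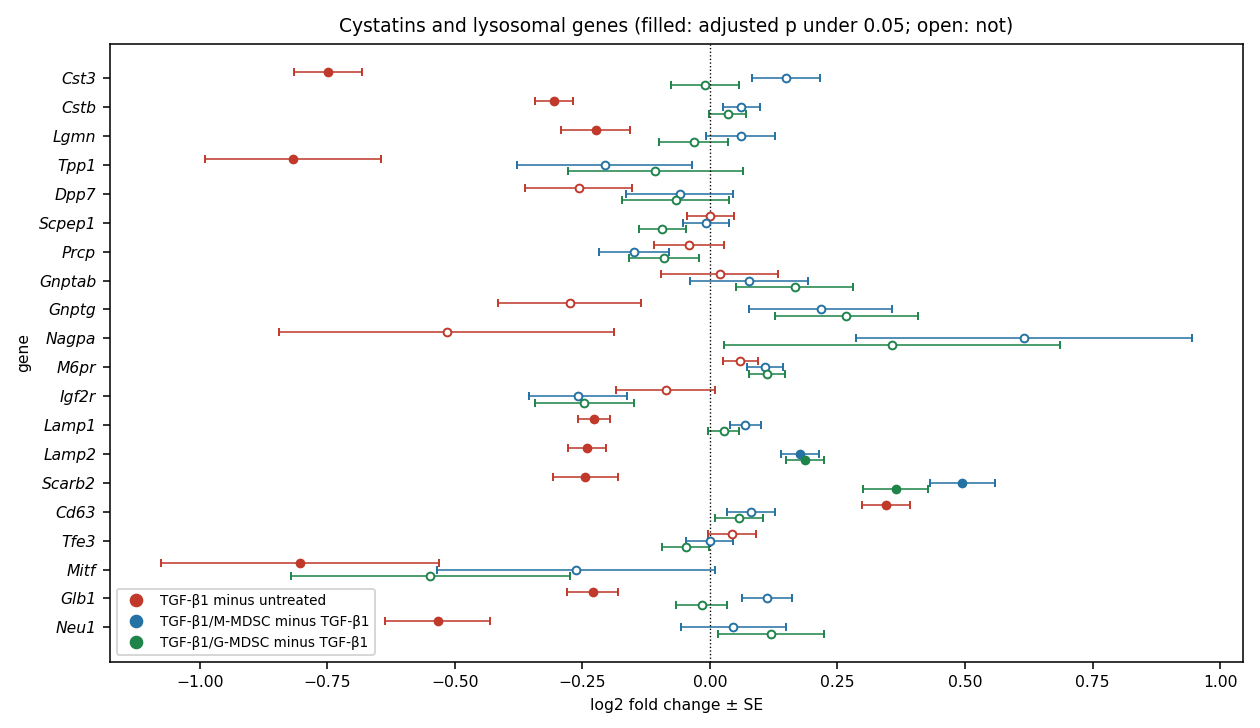
Log2 fold change ± SE of the tested cystatins, lysosomal peptidases (without Napsa, which is at 0 in the groups without supernatant), sorting genes, lysosomal membrane proteins and regulators, and partners of cathepsin A, for TGF-β1 against untreated (red) and each supernatant against TGF-β1 alone (blue and green). Filled points pass the adjusted test, which for the supernatants are Lamp2 and Scarb2, and for TGF-β1 Cd63 at 0.35 and 10 genes below 0, with Mitf, which passed the filter through the untreated libraries, among these.

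Between M-MDSC and G-MDSC supernatant, edgeR and DESeq2 each called 0 genes of these lists, where they called 0.125% and 1.01% of all genes tested. Cst3 (log2 difference 0.16) and Glb1 (0.13) had an unadjusted p under 0.05 there in edgeR, which 6.33% of all genes reached. Of the 13 further cathepsin genes, none passed the filter and 10 were at 0 in every library. Ctsf and Ctso were the highest of them, with mean levels from 0.252 to 0.370 and from 0.252 to 0.387 FPKM over the 4 groups.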

How the data were processed

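RNA of 12 MSC libraries was sequenced by the authors in stranded, paired-end mode. Per the submitters' processing notes, cutadapt 1.9, HISAT2 2.0.4 and StringTie 1.3.4d were used, with GRCm38 as the genome. The deposited table of the authors holds whole-number counts per gene and library, not normalized, and FPKM values, with 0.0001 in place of 0 where no read was counted (read here as 0). The tool that made the counts and its strand setting are not given in the sources used here. Low counts do not behave as single fragments: values of 4, 8 or 12 made up 44.3% of those from 1 to 12.

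Groups were taken from the labels. In edgeR 4.0.16 (R 4.3.3), TMM scaling (factors 0.978 to 1.03) was followed by a quasi-likelihood fit of all 4 groups together and its two-sided F test. Benjamini-Hochberg adjustment ran over 12016 genes. A gene was called at an adjusted p under 0.05. Intervals are 95% intervals of the fit. Alternatives were DESeq2 1.42.0, limma 3.58.1 on log2(FPKM + 1) and log2(FPKM + 0.1), median-ratio scaling, no filter, only the groups compared, a replicate block, counts divided by 4, a call by fold change over 2 or under 0.5 with unadjusted p under 0.05, and each library left out. Joins and sequence searches used Python 3.11.15 with pandas 2.3.3. The test was tested on simulated data for the M-MDSC comparison with 12016 genes. It recovered 29 of 50 genes changed 1.5-fold, 44 of 50 changed 2-fold and 48 of 50 changed 4-fold. Of genes lowered to 0.25-fold, the only decrease simulated, it recovered 46 of 50. There were 10 false calls in all.

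All 10 cathepsins are named, together with the tested genes of the lists and the 5 genes most like Ctsw by correlation, although not every one of the latter is reported here. Genes added to these after their values were seen are Postn, Ctsf, Ctso, Tfeb and single markers. The cathepsins and the lists were chosen with earlier results of these data known. The neighbours of Ctsw were found from the gene positions that the authors gave with the counts. Proteins, flow cytometry and quantitative PCR of the study were not analysed here.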

Additional observations from a re-analysis of the deposited data

How the results depend on the processing

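The counts of called cathepsins, over the 6 that passed the filter, were the same under every alternative run, with 1 exception: by fold change over 2 or under 0.5 with unadjusted p under 0.05, the count called higher went from 1 to 0 with M-MDSC and from 1 to 0 with G-MDSC supernatant, since Ctsb changed by less than that fold. With single libraries left out, the count called higher was 1 to 1 in both comparisons, the count called lower 0 to 0, and both counts 0 to 0 between the supernatants. With TGF-β1, 1 to 1 member lay above and 5 to 5 below untreated. The replicate numbers did not pair the libraries: residuals of libraries with the same number had a mean correlation of -0.0038 (18 pairs), against 0.0020 for different numbers (36 pairs). With the replicate number as a block, Ctsb stayed at 0.20 in both comparisons (edgeR adjusted p = 0.0257 and 0.0207), the count called higher was 1 in each, and among the tested inhibitors, neighbours of Ctsw and lysosomal genes the call of Lamp2 with M-MDSC supernatant was the 1 that changed. The block lowered the number of genes called with TGF-β1 from 4082 to 3932, with M-MDSC from 574 to 461, with G-MDSC supernatant from 668 to 569, and between supernatants from 15 to 8. Between supernatants DESeq2 called 121 genes, limma 39 with a pseudocount of 1 and the fit of only these groups 41, and with M-MDSC supernatant the fit of only these groups called 351.

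Ctsl with G-MDSC supernatant, near 0 (-0.0092), changed sign to 4e-04 with DESeq2, 4e-04 with median-ratio scaling, 0.0026 with only the groups compared, 0.0136 with limma and a pseudocount of 1 and 0.0142 with 0.1. With libraries left out it ranged from -0.0787 to 0.0526. Other small differences that changed sign with a library left out were Ctsa with M-MDSC supernatant (-0.0064 to 0.056) and, between supernatants, Ctsw (-0.0444 to 0.1835), Ctsa (-0.0451 to 0.0174), Ctsb (-0.0191 to 0.0129) and Ctsd (-0.0205 to 0.025). None of these values passed a test. The log2 fold change of Ctsw with TGF-β1 was 3.31 with a pseudocount of 1 and 5.05 with 0.1, and 5.33 to 5.66 with libraries left out. Depth limits Ctss, Ctsc and Ctsk, which had 0 to 149 counts a library, and the spread between libraries limits Ctsw. With 3 libraries a group, no outlier test within groups was made.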
